A study of Mus musculus with 16 samples.

Results

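The transcripts of 9 genes of the CARD9-BCL10-MALT1 signaling pathway were followed in sorted brain CD11b+ cells: Syk, Vav1, Prkcd, Card9, Trim62, Bcl10, Malt1, Card10 and Rubcn. They were chosen by name for their role in the pathway, and make up 9 of the 55385 gene symbols counted. All 9 passed the filter on low counts that 14513 genes passed. The cells came from brains of mice of 20 weeks and were sorted with CD11b magnetic beads after perfusion and removal of the meninges and choroid plexus. From them 16 RNA-seq libraries were made, 4 in each of 4 genotypes. The study's methods call the 5xFAD mice obtained for the crosses female and do not give the sex of the mice sequenced. The WT mice, named Control in the labels, carried no transgene. The 5xFAD mice carried human transgenes of familial Alzheimer's disease, mutant APP among them, which the Thy1 promoter drives in neurons and not in microglia, and accumulate amyloid-beta in the brain. The Card9-/- mice carried a germline deletion of Card9, so that the deletion is not restricted to microglia, and the Card9-/-5xFAD mice carried both. The labels number the libraries 1 to 4 within a genotype and do not say how many mice went into each, so the p-values measure the spread between these libraries.

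CARD9 is an adaptor protein of myeloid cells. Receptors such as Dectin-1, encoded by Clec7a, or TREM2, which signals through the ITAM adaptor encoded by Tyrobp, recruit the tyrosine kinase SYK. VAV exchange factors and the kinase PKC-delta, encoded by Prkcd, act downstream of SYK, and phosphorylated CARD9 then assembles with BCL10 and the protease MALT1 into a filamentous complex that activates NF-kB and MAP kinases. TRIM62 is the ubiquitin ligase of CARD9, Rubicon, encoded by Rubcn, binds CARD9 and limits its signaling, and CARD10 takes the place of CARD9 beside BCL10 and MALT1 mainly in cells outside the blood lineages.

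The windows of 250 bases upstream of the start are shown for Card9 and Vav1, whose levels were low in the same libraries as described further on, and which were the 2 of 8 members with a RefSeq window that held AGGAAGT, a core sequence of ETS factors such as PU.1. Prkcd, which was low in the same libraries, held no match in its 2 windows, and Trim62, also low there, held none in its window. Windows are from GRCm38.p6, are written in the direction of the gene, and carry AGGAAGT in capitals.
Card9 (chr2:26360910-26361159, minus strand): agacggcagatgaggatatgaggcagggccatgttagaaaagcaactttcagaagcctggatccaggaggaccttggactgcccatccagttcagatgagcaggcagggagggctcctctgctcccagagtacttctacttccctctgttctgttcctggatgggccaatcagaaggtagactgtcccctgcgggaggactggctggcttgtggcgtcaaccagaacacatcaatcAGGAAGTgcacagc
Vav1 (chr17:57278850-57279099, plus strand): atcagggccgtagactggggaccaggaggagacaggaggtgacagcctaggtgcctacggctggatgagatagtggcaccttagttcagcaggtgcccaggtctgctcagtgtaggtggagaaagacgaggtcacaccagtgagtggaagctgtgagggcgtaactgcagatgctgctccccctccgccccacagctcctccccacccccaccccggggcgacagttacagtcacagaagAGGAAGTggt
The match began 14 bases before the start of Card9 and 10 bases before that of Vav1. AGGAAGT on either strand was in 7.69% of the 32851 mouse windows of this length. Counted by gene, 8.8% of 27025 genes held it in any of their windows. Of the other motifs searched on both strands, GAGGAAGT, which contains AGGAAGT, was in the window of Vav1 and in 2.44% of all windows, and CACGTG was in windows of Prkcd and Rubcn and in 6.02% of all windows. A match is a description of the letters and not of a bound site, and Malt1 has no window here.

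Depth and cell content set the frame for every value of the 9 genes. Libraries held 2970148 to 19333325 counts on genes (median 7944265). All 9 of 9 microglia markers, among them P2ry12, Tmem119, Cx3cr1, Csf1r, Siglech, Sall1, C1qa and Itgam, were detected, with a sum of 12490 to 30980 CPM (counts scaled to the size of the library, with TMM factors). Within each genotype 1 library stood apart by its share of counts on ribosomal protein genes, namely WT replicate 1, the library labelled Card9-/- replicate 4, 5xFAD replicate 1 and the library labelled Card9-/-5xFAD replicate 4, with 4.09% to 5.93% against 0.914% to 3.24% in the other 12. These 4 libraries had the lowest sums of microglia markers (12490 to 15380 CPM against 19350 to 30980 CPM) and the highest sums over the 5 choroid plexus or ependymal markers (1129 to 2494 CPM against 3.06 to 862 CPM), and over the 6 neutrophil markers they held 2036 to 6020 CPM against 478 to 2021 CPM. No marker of these lists was at 0 in all libraries. Results are therefore given with all 16 libraries and also for the 12 that remain without these 4, a choice made after the data were seen. Among these 12, border-associated macrophage markers summed to 667 to 936 CPM without and 315 to 484 CPM with the transgenes. Dendritic cell markers summed to 166.5 to 263 CPM without and 69.6 to 133 CPM with them. Sums of microglia, neutrophil and choroid plexus or ependymal markers overlapped between the same libraries. The part of this cell content in the transgene effects below was not tested. In bulk RNA, fewer cells of a type and less RNA per cell cannot be told apart.

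Card9 was detected in every library, also in those labelled Card9-/-. In WT, the 4 libraries held 13.6, 51.4, 43.2 and 39.3 CPM, and the libraries labelled Card9-/- held 31.6, 34.8, 33.2 and 16.7 CPM. In 5xFAD the values were 15.6, 32.6, 29.1 and 33.5 CPM, and those labelled Card9-/-5xFAD held 26.6, 33.7, 9.73 and 10.8 CPM. The lowest value of each genotype was in the library that stood apart, except in Card9-/-5xFAD, where replicate 3 was lower still, and the ranges of all 4 genotypes overlapped. In counts, the lowest was 27 and the highest 842, the latter in the library labelled Card9-/- replicate 2.

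The mean Card9 level was 36.9 ± 16.3 CPM in WT and 29.1 ± 8.37 CPM in libraries labelled Card9-/- (SD, n = 4 each), and 27.7 ± 8.29 CPM in 5xFAD and 20.2 ± 11.8 CPM in libraries labelled Card9-/-5xFAD. The difference of mean log2 CPM was -0.24 without the transgenes (two-sided exact permutation test, p = 0.5429) and -0.59 with them (two-sided exact permutation test, p = 0.2571), where 0.02857 is the smallest p that 70 assignments can give. The latter moved between -0.91 without the library labelled Card9-/-5xFAD replicate 2 and -0.32 without that labelled replicate 3. Without WT replicate 1, the first difference was -0.67 (exact permutation p = 0.05714, the smallest that 35 assignments can give), and without the library labelled Card9-/- replicate 4 it was 0.0082 (exact permutation p = 1). The fitted log2 fold change of Card9 was -0.34 ± 0.45 (SE, edgeR adjusted p = 0.9697) without and -0.44 ± 0.45 (adjusted p = 0.993) with the transgenes, and -0.43 and -0.45 in the 12 libraries. The upper end of the 95% interval of the average over both was a log2 fold change of 0.28 and the lower end was -1.06, so that a reduction to under 0.48 of the Card9+/+ level lay outside it.

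The count does not check the deletion itself. It sums reads over the exons of Card9 (chr2:26352176-26360918, minus strand, GRCm38), and which exons the allele lacks is not given in the sources used here, so that reads of any exon left in place were counted. For this reason the libraries are named by their label, and every direction between Card9 genotypes below rests on those labels. On the other strand, Gm13562 shares 87 exon bases with Card9. Its own counts ran from 0 to 40 per library and came to 3.21% of those of Card9, and without a stated strand setting reads of the shared bases cannot be assigned to 1 of the genes. Of the 24 genes within 250 kb of Card9, 13 were tested and 0 passed in any of the 7 comparisons (edgeR, lowest adjusted p 0.1621).

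Per kilobase of exon, Vav1 and Prkcd had the highest means. In WT, Vav1 stood at 75.1 ± 23.4 CPM per kilobase, Prkcd at 53.6 ± 18.1, Bcl10 at 25.8 ± 5.33, Card9 at 16.1 ± 7.12 and Syk at 11.6 ± 3.51 (SD, n = 4). Rubcn followed with 3.09 ± 1.31 CPM per kilobase, Malt1 with 1.66 ± 0.416, Trim62 with 0.444 ± 0.354 and Card10 with 0.233 ± 0.0961. Neighbours in this order overlapped in range, apart from Syk over Rubcn and Malt1 over Trim62. The order was the same in 5xFAD, and in the libraries labelled Card9-/- and Card9-/-5xFAD it differed in that the mean of Syk lay above that of Card9. The scaffold partners were thus unequal, with Bcl10 measured at a higher level per kilobase than Malt1 in each genotype. The scale divides by all annotated exon bases of a gene, which come to 18040 for Malt1 and 4564 for Bcl10.

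**Figure D1:**
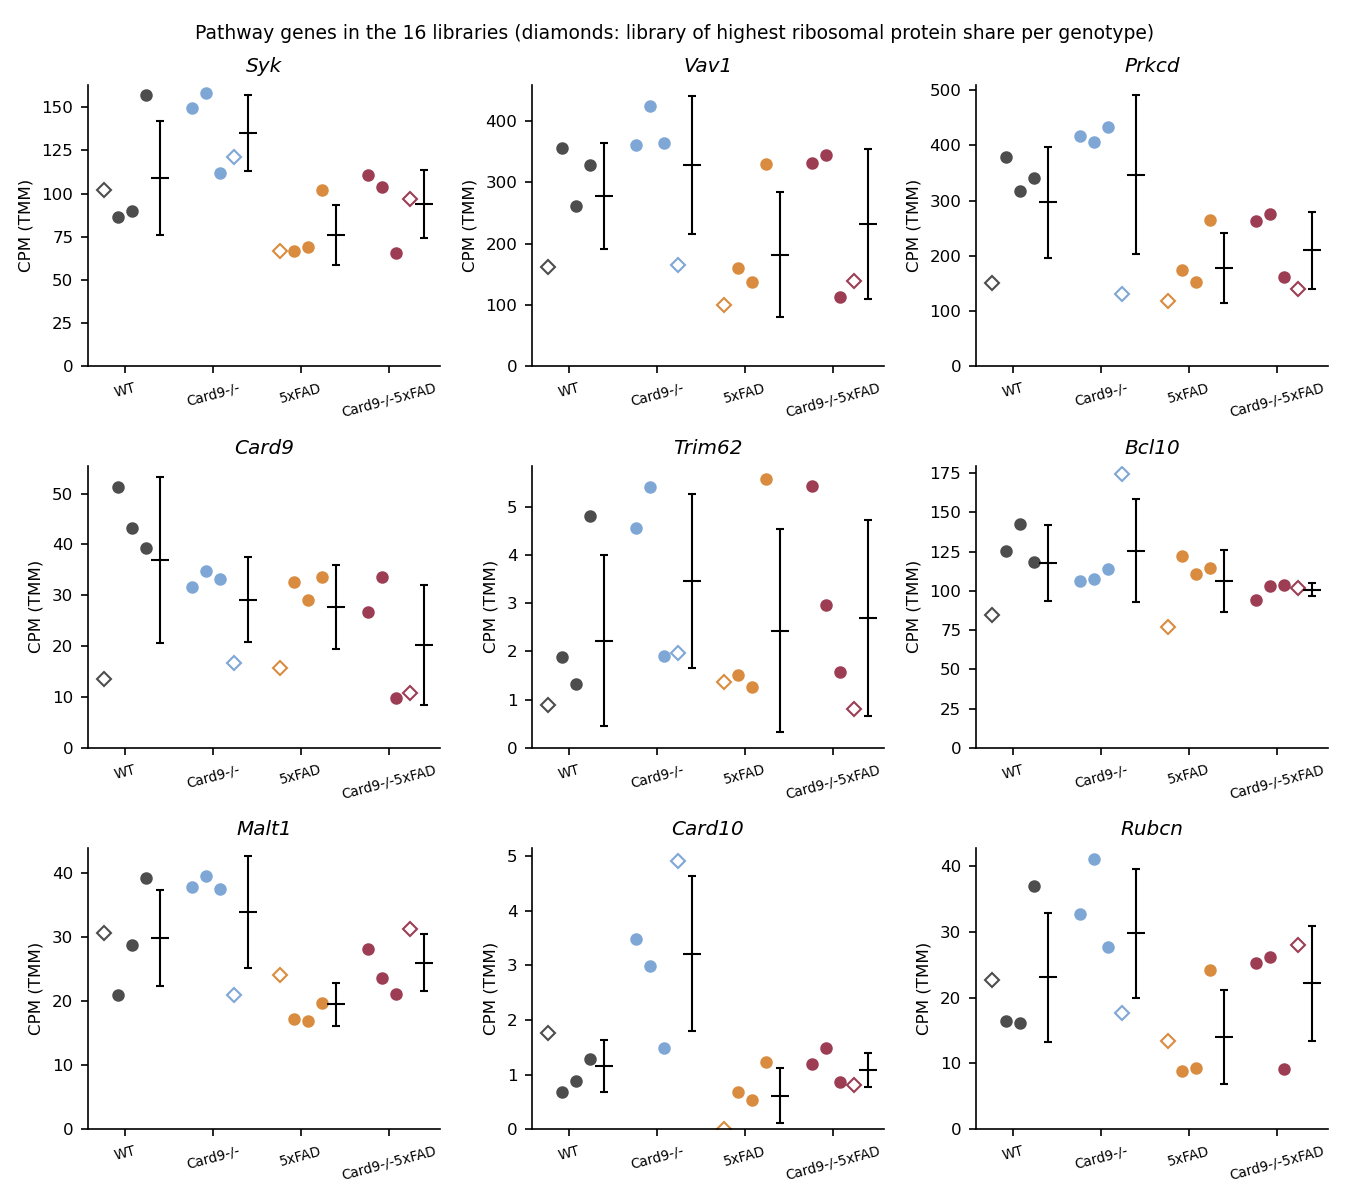
TMM-scaled CPM of the 9 genes in each of the 16 libraries, by labelled genotype in the order of replicate number, with the mean and SD of 4 libraries as a black mark and bar. Open diamonds mark the library with the highest ribosomal protein share of each genotype, which held the lowest Prkcd value in all 4 genotypes, and Card10 was at 0 in 5xFAD replicate 1.

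The first question was whether the transgenes changed the pathway, with Card9 intact (5xFAD versus WT) and in the mice labelled Card9-/- (Card9-/-5xFAD versus Card9-/-). These comparisons share no library. The log2 fold change was below 0 for 8 of 9 genes in the first and for 9 of 9 in the second, with Trim62 as the exception, and 8 were below 0 in both, as were 51.6% of all genes tested. In the 12 libraries the counts below 0 were again 8 and 9. The median over the 9 was -0.61 in 5xFAD versus WT, against -0.15 over all genes tested, and -0.50 in Card9-/-5xFAD versus Card9-/-, against -0.15. In edgeR 0 of 9 genes passed an adjusted p of 0.1 in either comparison, where 2.09% of all genes passed in 5xFAD versus WT and 1.97% in Card9-/-5xFAD versus Card9-/-. At an unadjusted p under 0.05 there was 1 of 9 in each, Malt1 in the first, beside 10.8% of all genes, and Card10 in the second, beside 12.2%. DESeq2 called 0 of 9 in both, where it called 4.16% and 5.88% of all genes. In the 12 libraries 1 of 9 passed in each, Prkcd, with log2 fold changes of -0.78 and -0.82 (edgeR adjusted p = 0.09448 and 0.05553), beside 7.97% and 16.7% of all genes, so that the share of the 9 was near that of all genes.

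The average of both transgene effects set 8 libraries against 8. Here too 0 of 9 genes passed, beside 11.3% of all genes, and 4 of 9 had an unadjusted p under 0.05, beside 22.8% of all genes, namely Syk, Malt1, Card10 and Prkcd, with adjusted p of 0.1127 to 0.1393 (edgeR). DESeq2 on the same libraries called 3, Card10, Malt1 and Syk (adjusted p = 0.07941, 0.07745 and 0.04913), beside 16.8% of all genes, and edgeR on the 12 libraries called 3, Malt1, Prkcd and Syk, beside 34.5% of all genes.

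Within each Card9 genotype, same-numbered libraries with and without the transgenes correlated in their deviations from the group means by 0.128 to 0.734. The weakest pair was replicate 3 of the labels Card9-/- and Card9-/-5xFAD, and correlations between libraries of different numbers are not given here. A fit with these 8 pairs as blocks, added after the data were seen, gave other calls. The pairs were taken from these same data, and the labels do not give them. In the average, 7 of 9 genes passed, all but Bcl10 and Trim62, beside 41.9% of all genes. Syk and Prkcd passed in 5xFAD versus WT, beside 16% of all genes, and in Card9-/-5xFAD versus Card9-/-, beside 20.4%. The SE of the average was smaller than without blocks for each of the 9. Syk and Bcl10 were lower with the transgenes in 8 of 8 pairs, as were 9.6% of all genes, and Card9, Malt1, Prkcd, Card10, Vav1 and Rubcn in 7 and Trim62 in 5 of 8. The libraries that stood apart fall into the same pairs, WT replicate 1 with 5xFAD replicate 1, and the library labelled Card9-/- replicate 4 with that labelled Card9-/-5xFAD replicate 4.

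Syk, the tyrosine kinase that receptors with ITAM motifs recruit, had lower means with the transgenes that passed the test only under some of the alternatives. The WT libraries held 102, 86.4, 90.1 and 157 CPM and the 5xFAD libraries 66.6, 66.5, 68.9 and 102 CPM. Those labelled Card9-/- held 149, 158, 112 and 121 CPM, and those labelled Card9-/-5xFAD 110.5, 104, 65.9 and 96.9 CPM. All 4 libraries labelled Card9-/-5xFAD lay below all 4 labelled Card9-/-, whereas 5xFAD replicate 4 stood within the WT range. Non-overlap in this direction was found for 3.48% of all genes in Card9-/-5xFAD versus Card9-/- and for 3.69% in 5xFAD versus WT, and among the 9 genes for Syk and Bcl10 in the former and for 0 in the latter. The averaged log2 fold change of Syk was -0.52 ± 0.19 (SE, edgeR adjusted p = 0.1127, range over the alternatives 0.004816 to 0.3418), and -0.52 in each comparison alone. With the pairs as blocks it was -0.52 ± 0.11 (adjusted p = 0.004816 in edgeR), and -0.50 and -0.54 in the single comparisons (adjusted p = 0.07038 and 0.04322 in edgeR). In the 12 libraries it was -0.51 (edgeR adjusted p = 0.08318) and without the library labelled Card9-/- replicate 4 it was -0.55 (adjusted p = 0.08227).

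Vav1, a guanine exchange factor of blood cells, and Prkcd, the kinase that phosphorylates CARD9, had the highest levels of the 9. Prkcd measured 152, 379, 317 and 341.5 CPM in WT and 117, 175, 152 and 265 CPM in 5xFAD. With the label Card9-/- it measured 418, 406, 433 and 131 CPM, and with the label Card9-/-5xFAD 264, 275, 162 and 139 CPM. Leaving the libraries apart aside, the 6 with the transgenes lay between 152 and 275 CPM and the 6 without them between 317 and 433 CPM, the libraries being set aside after the values were seen. In these 12 the ribosomal protein share was also split, at 0.914% to 1.84% without and 2.22% to 3.24% with the transgenes. Of all genes, 34.5% passed in the average of the 12, and the share that separated in this way is not given here. The averaged log2 fold change of Prkcd was -0.73 ± 0.29 with all 16 libraries (SE, edgeR adjusted p = 0.1393, range over the alternatives 0.001829 to 0.6085), -0.80 ± 0.17 with the 12 (adjusted p = 0.006212) and -0.69 ± 0.17 with the pairs as blocks (adjusted p = 0.009057). In the single comparisons with blocks it was -0.73 and -0.64 (edgeR adjusted p = 0.07542 and 0.09304). Leaving out only the library labelled Card9-/- replicate 4 gave -0.87 (edgeR adjusted p = 0.03572), and leaving out only WT replicate 1 gave -0.85 (adjusted p = 0.0737).

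For Vav1, WT libraries held 162, 356, 262 and 329 CPM and 5xFAD libraries 99.8, 160.1, 138 and 329.7 CPM. Those labelled Card9-/- held 361, 424, 364 and 165.5 CPM, and those labelled Card9-/-5xFAD held 331, 345, 113 and 139 CPM. High and low libraries occurred in every genotype, and 5xFAD replicate 4 reached the level of WT. The averaged log2 fold change was -0.56 ± 0.32 (SE, edgeR adjusted p = 0.3207, range over the alternatives 0.02214 to 0.9066), and -0.54 with the 12 libraries (adjusted p = 0.1588). Vav1 passed with the pairs as blocks at -0.64 (edgeR adjusted p = 0.02214) and with 1 surrogate variable at -0.52 (edgeR adjusted p = 0.02995).

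Malt1, the protease and scaffold of the complex, had a lower mean in 5xFAD than in WT, a difference that did not pass the test. WT libraries held 30.6, 20.97, 28.8 and 39.3 CPM and 5xFAD libraries 24.1, 17.3, 16.9 and 19.8 CPM, so that only the highest 5xFAD value lay within the WT range. In libraries labelled Card9-/- the values were 37.8, 39.5, 37.6 and 20.9 CPM, and in those labelled Card9-/-5xFAD 28.1, 23.6, 21.2 and 31.2 CPM. The library labelled Card9-/- replicate 4 was the one that overlapped. The log2 fold change was -0.62 ± 0.26 in 5xFAD versus WT (SE, edgeR adjusted p = 0.4027), -0.39 ± 0.26 in Card9-/-5xFAD versus Card9-/- (adjusted p = 0.5913) and -0.50 ± 0.19 on average (adjusted p = 0.1192, range over the alternatives 0.01432 to 0.322). It passed with the pairs as blocks at -0.49 (adjusted p = 0.03801), with the 12 libraries at -0.66 (adjusted p = 0.01432), without the library labelled Card9-/- replicate 4 at -0.59 (0.03951), without WT replicate 2 at -0.58 (0.09309) and without the library labelled Card9-/-5xFAD replicate 4 at -0.55 (0.09448, all adjusted p from edgeR).

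Bcl10, the partner through which CARD9 reaches MALT1, had the smallest spread of log2 CPM of the 9 genes (0.27). It ranged from 84.5 to 142 CPM in WT, from 106 to 175 CPM with the label Card9-/-, from 77.2 to 122 CPM in 5xFAD and from 94.4 to 104 CPM with the label Card9-/-5xFAD. Over all 16 libraries the highest value was 2.26 times the lowest, close to Malt1 with 2.34 and Syk with 2.4, while Card9 spanned 5.28-fold and Vav1 4.25-fold. The averaged transgene effect was -0.23 ± 0.18 (SE, edgeR adjusted p = 0.4593), with a 95% interval of -0.60 to 0.14. For Card9 itself the averaged effect was -0.46 ± 0.32 (SE, edgeR adjusted p = 0.4042, range over the alternatives 0.06354 to 0.7079), and it passed with the pairs as blocks at -0.48 (edgeR adjusted p = 0.06354) and with 1 surrogate variable at -0.39 (edgeR adjusted p = 0.08506).

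Card10, the relative of CARD9, had few counts, at most 72 in a library. The WT libraries held 1.76, 0.685, 0.883 and 1.28 CPM and the 5xFAD libraries 0, 0.685, 0.540 and 1.23 CPM, where a count of 0 in 5xFAD replicate 1 allows up to 0.454 CPM (3 counts, counting error only). Those labelled Card9-/- held 3.48, 2.98, 1.48 and 4.91 CPM, and those labelled Card9-/-5xFAD 1.18, 1.48, 0.869 and 0.801 CPM. Of the libraries labelled Card9-/-, 3 held the highest values of the 16 and replicate 3 lay within the WT range. Card10 was highest in the library labelled Card9-/- replicate 4, which also had the highest sums of choroid plexus and endothelial markers. Endothelial markers summed to 262 CPM there and to between 41.5 and 56.9 CPM in the other 3 of that label, and their part in the result was not tested. The log2 fold change was -1.48 ± 0.62 in Card9-/-5xFAD versus Card9-/- (SE, edgeR adjusted p = 0.33), -0.85 ± 0.65 in 5xFAD versus WT (adjusted p = 0.6769) and -1.16 ± 0.45 on average (adjusted p = 0.1334, range over the alternatives 0.04196 to 0.2602), and on average -0.62 with the 12 libraries (adjusted p = 0.1909) and -1.14 with the pairs as blocks (adjusted p = 0.06434). The interval of the average reached from -2.11 to -0.21.

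Rubcn, which limits CARD9, ranged from 16.1 to 37.0 CPM in WT and from 8.91 to 24.2 CPM in 5xFAD, and from 17.7 to 41.1 CPM and 9.21 to 28.0 CPM in the libraries labelled Card9-/- and Card9-/-5xFAD. The ranges overlapped in each comparison, with an average transgene effect of -0.58 ± 0.30 (SE, edgeR adjusted p = 0.2563, range over the alternatives 0.02665 to 0.4962), which passed with the pairs as blocks at -0.63 (adjusted p = 0.02665). Fyttd1 on the other strand shares 171 exon bases with Rubcn and held 321% of its counts (351 to 1902 per library), so that reads of the shared bases are uncertain between the genes. Trim62, the ligase of CARD9, had 2 to 131 counts and 0.801 to 5.58 CPM. Its average effect was -0.10 ± 0.47 (SE, edgeR adjusted p = 0.9208) and ran from -0.39 without the library labelled Card9-/-5xFAD replicate 1 to 0.24 without WT replicate 4, so that no direction can be given at this depth.

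**Figure D2:**
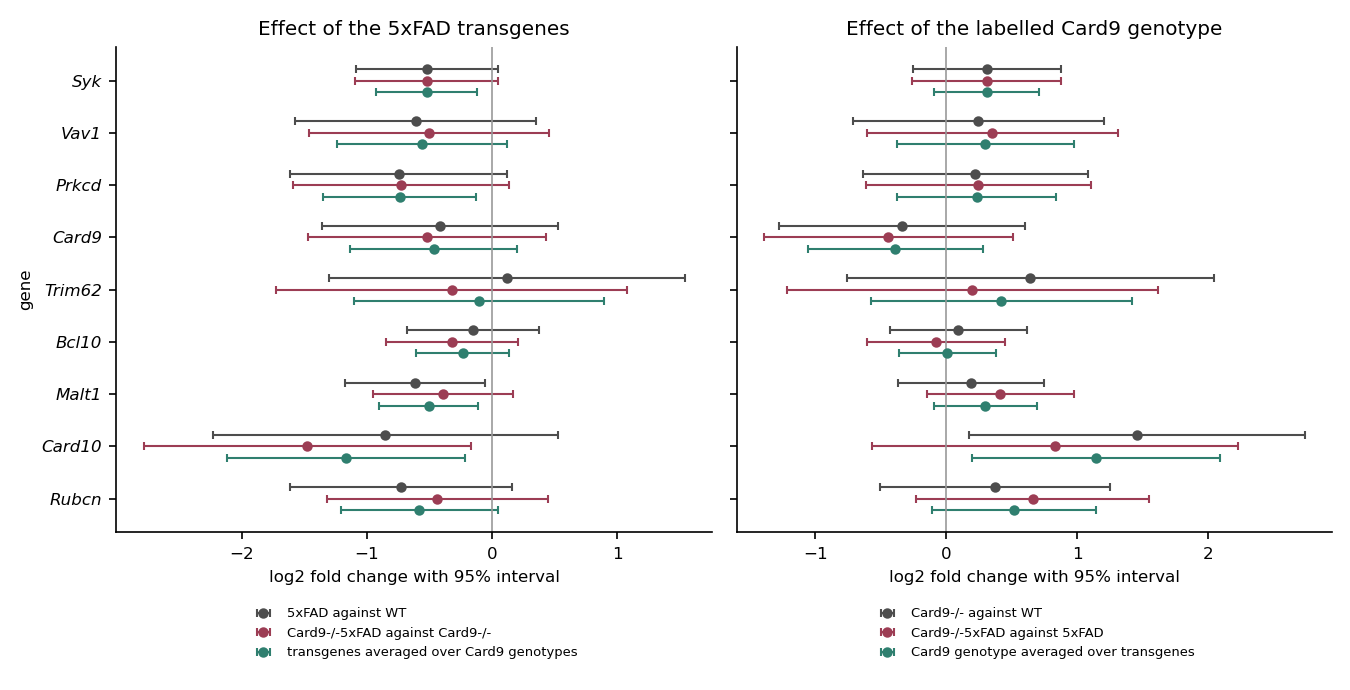
Log2 fold changes of the 9 genes in edgeR with 95% intervals, for the transgenes (left) and for the labelled Card9 genotype (right), each as the 2 pairwise comparisons and their average. On the left the points lie below 0 with the exception of Trim62 in 5xFAD against WT, and on the right the 3 Card9 points lie below 0 while the 3 Card10 points lie above it.

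The second question was whether the labelled Card9 genotype changed the rest of the pathway. In Card9-/- versus WT, 0 of 9 genes passed (0% of all genes, with 597 of 14513 or 4.11% at an unadjusted p under 0.05 in edgeR and 6 or 0.0422% called by DESeq2), and in Card9-/-5xFAD versus 5xFAD 0 of 9 (0% of all genes, with 366 or 2.52% at an unadjusted p under 0.05 and 3 or 0.0211% called by DESeq2). Averaged over the transgenes 0 of 9 passed, beside 0.0276% of all genes, and 0.422% in DESeq2. DESeq2 called 0 of 9 in each of these. Over the 9 genes the median log2 fold change came to 0.25 without the transgenes and 0.31 with them, where the medians of all genes tested were 0.11 and 0.14. In the 12 libraries 0 of 9 passed as well, beside 0% of all genes in each comparison and 0.0209% in the average.

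Card10 was the 1 gene with an unadjusted p under 0.05, in Card9-/- versus WT, with a log2 fold change of 1.46 ± 0.61 (SE, edgeR adjusted p = 0.9697), and 0.83 ± 0.66 in Card9-/-5xFAD versus 5xFAD (adjusted p = 0.993). Its average was 1.15 ± 0.45 (SE, edgeR adjusted p = 0.5186, range over the alternatives 0.1243 to 0.84), and 0.99 in the 12 libraries. The 95% interval of the average was narrowest for Bcl10, Malt1 and Syk. Bcl10 lay between -0.36 and 0.38 on the log2 scale, Malt1 between -0.09 and 0.70 and Syk between -0.09 and 0.71. Rubcn had an average of 0.52 ± 0.30 (SE, edgeR adjusted p = 0.5851) and a value of 0.66 ± 0.42 in Card9-/-5xFAD versus 5xFAD (adjusted p = 0.993). Prkcd, Vav1 and Trim62 had averages of 0.23, 0.30 and 0.42, each with an interval that included 0.

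The interaction asks whether the transgene effect differed between the Card9 genotypes. Here 0 of 9 genes passed (0% of all genes, 78 of 14513 or 0.537% at an unadjusted p under 0.05 in edgeR and 1 or 0.00704% called by DESeq2), and 0 of the 9 had an unadjusted p under 0.05. The estimates ran from -0.62 ± 0.91 for Card10 to 0.29 ± 0.59 for Rubcn. For Syk the 2 transgene effects differed by -0.0018 with an interval of -0.81 to 0.81, so that a difference of the size of the effect itself was not detectable at this depth and spread.

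Across the 16 libraries, the members fell into different patterns. Prkcd and Vav1 were the closest pair, with a root mean square difference of 0.25 in log2 CPM after each gene was centered, against a spread of 0.65 and 0.69 of the genes themselves. Malt1 and Syk were next with 0.28, and the member nearest to Card9 was Prkcd with 0.46. Genotype accounted for 60.9% of the variance of log2 CPM for Card10, 54.6% for Syk, 49.4% for Malt1, 36.3% for Rubcn and 30.5% for Prkcd, against a median of 20.8% over all genes tested. For Vav1 (26.0%), Card9 (22.3%), Bcl10 (18.1%) and Trim62 (10%) the share was nearer to or below that median. These are descriptions over the 16 libraries, which share depth and cell content.

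Several members were low in the same libraries of different genotypes. Card9, Prkcd, Trim62 and Vav1 lay below the mean of the other 3 libraries in the library that stood apart in all 4 genotypes, as did 32.4% of all genes tested. In the Card9-/- libraries, Prkcd was at 0.313 of the mean of the other 3, Vav1 at 0.432 and Card9 at 0.5025. The ratios in WT, 5xFAD and Card9-/-5xFAD were 0.438, 0.595 and 0.597 for Prkcd and 0.514, 0.477 and 0.528 for Vav1. For Card9 they were 0.304, 0.492 and 0.463. A level below the mean of the other 3 was found in 3 genotypes for Syk and Rubcn, in 2 for Bcl10 and Card10 and in 1 for Malt1. Over all libraries the median ribosomal protein share was 1.73% without and 2.94% with the transgenes.

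**Figure D3:**
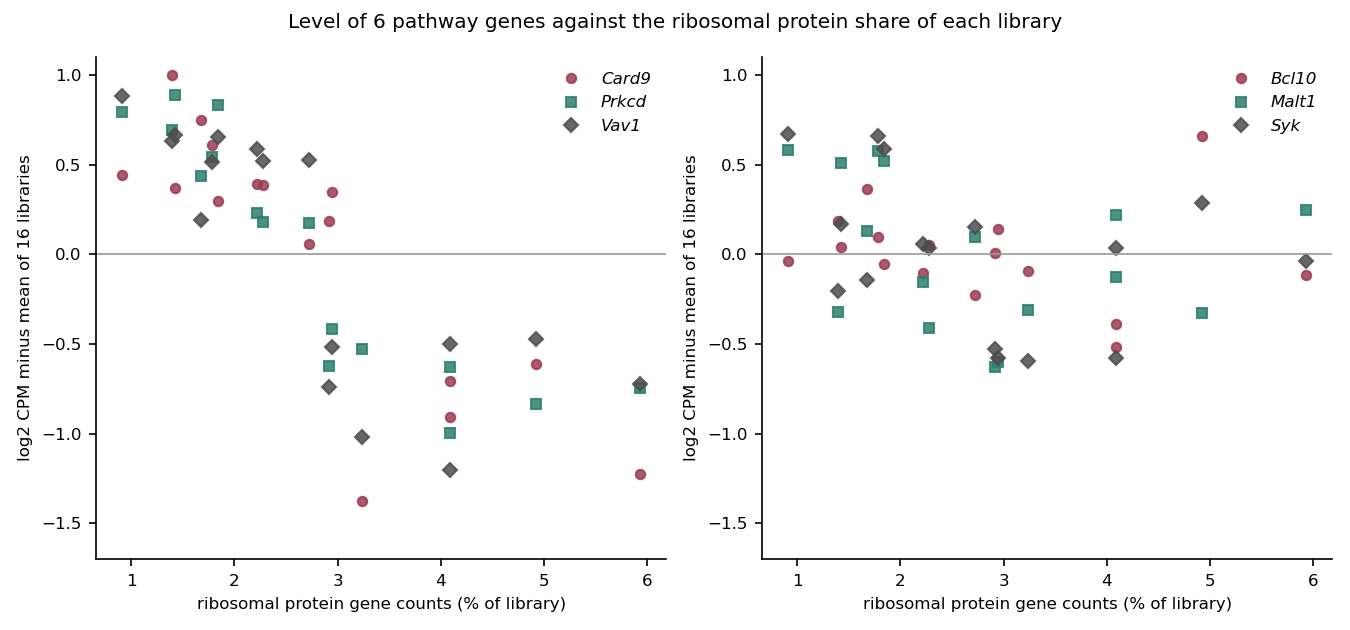
Log2 CPM of 6 genes, centered on their mean over the 16 libraries, against the percentage of each library's counts on ribosomal protein genes, with 1 point per gene and library. Card9, Prkcd and Vav1 (left) lie below 0 in the 4 libraries with a share of 4.09% or more, where Bcl10, Malt1 and Syk (right) lie on both sides of 0.

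With the log2 ribosomal protein share as a covariate, an alternative added after the data were seen, the averaged transgene effect was -0.13 for Prkcd, -0.04 for Vav1 and 0.12 for Card9, and it was -0.44 for Syk (edgeR adjusted p = 0.0877), -0.45 for Malt1 (0.1144) and -1.24 for Card10 (0.04196), with the ranges over the alternatives given above. The share and the transgenes moved together, so their parts in the levels of Prkcd, Vav1 and Card9 cannot be told apart.

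By the same measure over all genes, those nearest to Card9 were Trim27, Sumf1 and Stip1 with root mean square differences of 0.26 each, against a median of 0.88 over 14513 genes. Nearest to Bcl10 were Tpm3 (0.13), Tmem185b (0.16) and Nbn (0.17), and nearest to Malt1 were Ubr1 (0.14), Kmt2c (0.16) and Ino80d (0.16), against medians of 0.69 and 0.73.

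The rest of the route was covered by 70 further genes in 9 lists, of which 68 were tested. Of the 9 receptors and ITAM adaptors at the head of the pathway, 3 rose with the transgenes in each comparison. Clec7a, which encodes Dectin-1, had 53.7 to 92.3 CPM in WT and 592 to 883 CPM in 5xFAD, and 45.8 to 88.8 CPM and 291 to 856.5 CPM in the libraries labelled Card9-/- and Card9-/-5xFAD, with no overlap in either comparison. Its log2 fold change was 3.37 ± 0.37 in 5xFAD versus WT and 3.31 ± 0.37 in Card9-/-5xFAD versus Card9-/- (SE, edgeR adjusted p = 1.011e-04 and 1.361e-04). Trem2, a receptor for lipids, rose by 1.38 and 1.43 on the log2 scale (edgeR adjusted p = 0.034 and 0.03468), and Cd22, an inhibitory lectin, by 1.48 and 1.17 (adjusted p = 0.01835 and 0.08114).

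In this list 0 fell in either comparison, and on average 3 rose, 2 fell and 4 did not pass. The 2 that fell were Clec4e (-0.97), which encodes Mincle, and Clec4n (-0.87), which encodes Dectin-2. The adaptors Tyrobp and Fcer1g, the most abundant of the list per kilobase, had averages of 1.12 and 0.89 and did not pass (edgeR adjusted p = 0.1353 and 0.2323).

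Immediately below the receptors, 1 of 13 kinases and exchange factors rose and 3 fell on average. The Src-family kinase Fgr rose by 0.80, and Vav3 (-1.62), Prkca (-0.99) and Prkcq (-1.08) fell, each with an adjusted p under 0.1, while Lyn, the most abundant per kilobase, had an average of -0.35 that did not pass. For Prkcq neither single comparison passed, with -0.32 in 5xFAD versus WT and -1.83 in Card9-/-5xFAD versus Card9-/- (edgeR adjusted p = 0.8625 and 0.12). Vav3 was also called in 5xFAD versus WT (-1.86, edgeR adjusted p = 0.04649), where the 4 WT libraries held 4.93 to 11.55 CPM and the 5xFAD libraries 1.08 to 3.27 CPM. Of the NF-kB subunits, 2 of 4 fell on average, Rel (-0.85) and Nfkb1 (-0.63), and Rela, the most abundant per kilobase, and Nfkb2 had values of -0.35 and -0.18 that did not pass.

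The remaining lists moved in single genes. On average, Chuk, the IKK-alpha kinase, was the 1 of 12 genes of the steps from BCL10-MALT1 to NF-kB and MAP kinases that fell (-0.79), Ptpn22 the 1 of 8 negative regulators (-0.86) and Rc3h1, which encodes Roquin-1, the 1 of 6 MALT1 protease substrates (-0.59). The genes of the highest level per kilobase in these lists did not pass, with averages of 0.41 for Ube2n and -0.68 for Mapk14 in the first, 0.66 for Nfkbia and 0.05 for Ptpn6 in the second and -0.31 for Rbck1 and -0.18 for Relb in the third. Of the 9 cytokine targets tested, Ccl3 rose (1.33) and Il1b, the other of high level per kilobase, had an average of 0.04. In the list of CARD9 partners in other routes 0 of 6 passed, with averages of -0.13 for Tlr7 and -0.26 for Ripk2, and Card14 and Csf2 did not reach the count filter. In total 5 of 68 rose and 10 fell on average, or 22.1%, beside the 11.3% of all genes given above, and the median over the 68 was -0.33, against -0.15 over all genes. With DESeq2 size factors 10 of the 68 passed, beside 1617 of all 14513 genes. Between Card9 genotypes and in the interaction 0 of 68 passed in edgeR. Prkcq, which encodes PKC-theta, had a log2 fold change of 1.93 ± 0.51 in Card9-/- versus WT (edgeR adjusted p = 0.9697), with levels of 2.14 to 4.40 CPM in the WT libraries and 8.83 to 14.8 CPM in those with the label Card9-/-, and was named here after its values were seen. The study, which used DESeq2, lists Prkcq among the genes up-regulated in Card9-/- versus WT microglia at an FDR under 0.1. For the transgene average, the count of listed genes called was 29 without the 4 libraries that stood apart, beside 34.5% of all genes. With the pairs as blocks it was 39, beside 41.9% of all genes. All lists were chosen with results of these data known.

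**Figure D4:**
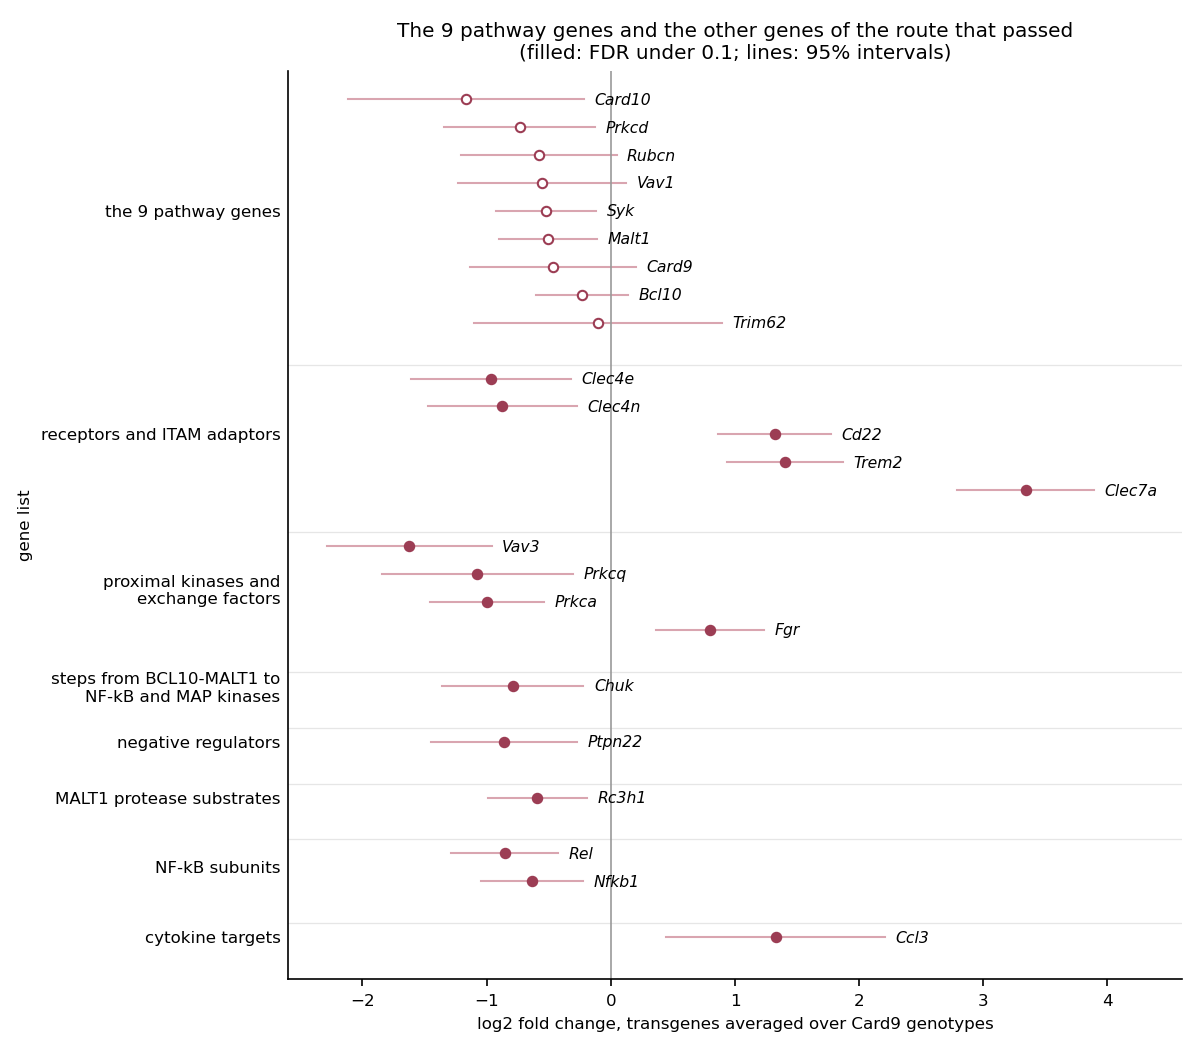
Log2 fold change of the transgenes, averaged over the Card9 genotypes, with 95% intervals for the 9 genes (top) and for the 15 genes of the other lists that passed an adjusted p of 0.1 (filled points), the other listed genes not being drawn. Clec7a stands farthest to the right at 3.34, and all 9 genes of the top list are open and below 0.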

How the data were processed

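RNA-seq was analysed for 16 libraries of CD11b+ brain cells, 4 per genotype, grouped by the labels. The authors aligned reads to mm10 with HISAT2, filtered alignments with SAMtools and deposited raw HTSeq read counts per gene symbol, as the submitters' processing notes and the study's methods state. Versions, the strand setting and the annotation release are not given in the sources used here, and 0 sample columns were left unused. Depth was 2970148 to 19333325 counts per library, and the floor given for a count of 0 covers counting error only, while intervals of fold changes include the spread between libraries.

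Counts were tested with edgeR 4.0.16 (R 4.3.3, quasi-likelihood F test, 1 coefficient per genotype, all 16 libraries, TMM scaling, minimum count 10 in filterByExpr, prior count 2). P-values were adjusted by Benjamini-Hochberg over all 14513 genes tested in each of 7 comparisons, with a threshold of 0.1. Fold changes are on the log2 scale with the SE taken from the F statistic. Card9 levels were also compared by a two-sided exact permutation test. Alternatives were DESeq2 1.42.0, its size factors, no filter, only the groups compared, a threshold of 0.05, a block for the replicate number, a fit with 1 surrogate variable (sva 3.50.0) and leaving out each library. Chosen after the data were seen were 12 libraries, the ribosomal protein share as a covariate and a block for the replicate number within each Card9 genotype. The labels do not say that a number marks a shared batch. Deviations from the group means of same-numbered libraries correlated by 0.275 to 0.708 in the 4 pairs of 5xFAD and WT and by 0.128 to 0.734 in the 4 pairs of Card9-/-5xFAD and Card9-/-, so that these were taken as pairs, whereas between Card9 genotypes the correlations ran from -0.71 to 0.609. Over all 4 genotypes, 5 of 16 libraries correlated best on average with those of their own number. The procedure was tested on simulated data. Exon lengths and overlaps are from GENCODE (GRCm38), and promoter windows from RefSeq (GRCm38.p6).

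The 9 genes and all lists were chosen with earlier results of these data known. Named besides them were listed genes that passed, the 2 of the highest level per kilobase in each list, the 3 genes most like Card9, Bcl10 and Malt1 in centered log2 CPM, and genes overlapping a member, of which a few are not reported here. No 2 libraries agreed within sampling noise (of 24 pairs within genotypes, the smallest ratio of chi-square to its degrees of freedom was 6.92).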

Additional observations from a re-analysis of the deposited data

Results flagged for a closer look

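In each genotype, the highest and the lowest of the 4 libraries were checked for a gap to the nearest other library that was large against the range of the group. Of 36 groups (9 genes in 4 genotypes) 9 had such a library, where chance gives about 1 in 20 groups. The library labelled Card9-/- replicate 4, 1 of the 4 that stood apart by their ribosomal protein share, accounted for 5 of these. It was low for Card9 (16.68 CPM), Malt1 (20.94 CPM), Prkcd (131.2 CPM) and Vav1 (165.5 CPM) and high for Bcl10 (174.7 CPM).

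In 5xFAD, replicate 4 was high for Syk (101.9 CPM) and for Trim62 (5.584 CPM). Among the libraries labelled Card9-/-5xFAD, replicate 1 was low for Bcl10 (94.43 CPM) and replicate 3 was low for Rubcn (9.211 CPM).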

How the results depend on the processing

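Of the fitted log2 fold changes of the 9 genes under all alternatives, 1336 kept their direction and their side of the threshold, 38 came to pass it and 33 changed sign. In the comparisons of Card9 genotypes and the interaction, 0 of the 9 genes passed under every alternative run, the pairs as blocks being run for the interaction only. The cause of the changes below was not tested. With 1 surrogate variable the members called went from 0 to 1 in 5xFAD versus WT and 2 in Card9-/-5xFAD versus Card9-/-. In the transgene average they went to 6 (Card9, Malt1, Syk, Prkcd, Card10 and Vav1). All genes called with it were 2029, 2479 and 5678 of 14513. With the 12 libraries the members called were 1, 1 and 3, beside 7.97%, 16.7% and 34.5% of all genes. With the ribosomal protein share as a covariate they were 0, 1 and 2, beside 1909, 3412 and 5724 of 14513 genes. DESeq2 called 3 in the transgene average, beside 16.8% of all genes. Leaving out 1 library gave 0 to 3 in the transgene average and 0 in the other comparisons. The count was 3 without the library labelled Card9-/- replicate 4. It was 1 each without WT replicate 1, WT replicate 2 and the library labelled Card9-/-5xFAD replicate 4. The share of all genes called was not taken for these fits, so these counts cannot be set against it.

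Of all genes, 304 were called in 5xFAD versus WT, and 591 by DESeq2, 2029 with the surrogate variable, 1144 with the 12 libraries and 1909 with the covariate. In Card9-/-5xFAD versus Card9-/- 286 were called, and 185 with no filter, 835 by DESeq2, 96 from only the groups compared, 162 at a threshold of 0.05, 2479 with the surrogate variable, 2394 with the 12 libraries and 3412 with the covariate. In the transgene average 1647 were called, and 1070 with no filter, 920 at 0.05, 5678 with the surrogate variable, 4948 with the 12 libraries and 5724 with the covariate. There 816 were higher and 831 lower (49.5% higher), and with DESeq2 size factors 949 and 668 (58.7% higher), where the median of all genes moved from -0.15 to -0.08. In Card9-/- versus WT 0 were called, and 2 with no filter, 6 by DESeq2, 11 with the surrogate variable and 2 with the covariate. In Card9-/-5xFAD versus 5xFAD 0 were called, and 1 with no filter, 3 by DESeq2, 1 with the surrogate variable and 1 with the covariate. In the Card9 average 4 were called, and 2 with DESeq2 size factors, 60 by DESeq2, 2 at 0.05, 661 with the surrogate variable and 47 with the covariate. In the interaction 0 were called and 1 by DESeq2.

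Of the other pathway genes, 4 were called in 5xFAD versus WT, and 2 with no filter, 18 with the surrogate variable, 15 with the 12 libraries and 14 with the covariate. In Card9-/-5xFAD versus Card9-/- 3 were called, and 1 with no filter, 8 by DESeq2, 1 from only the groups compared, 20 with the surrogate variable, 19 with the 12 libraries and 18 with the covariate. In the transgene average 15 were called, and 9 with no filter, 7 at 0.05, 32 with the surrogate variable, 29 with the 12 libraries and 25 with the covariate.

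With the covariate the log2 fold change of Card9 was 0.14 in 5xFAD versus WT, 0.10 in Card9-/-5xFAD versus Card9-/- and 0.12 in the transgene average. In Card9-/-5xFAD versus Card9-/- it was 0.010 for Prkcd, 0.47 for Trim62 and 0.12 for Vav1, and for Trim62 0.54 in the transgene average. When 1 library was left out, Trim62 ran from -0.48 to 0.81 in 5xFAD versus WT, from -0.39 to 0.84 in Card9-/-5xFAD versus 5xFAD and from -0.39 to 0.24 in the transgene average. Bcl10 was -0.23 in Card9-/- versus WT with the 12 libraries and ran from -0.11 to 0.19 with 1 library left out. Its Card9 average of 0.01 was -0.040 with DESeq2 size factors, -0.048 with no filter, -0.042 in DESeq2 and -0.22 with the 12 libraries, and ran from -0.12 to 0.054. The interaction of Rubcn was -0.032 with the 12 libraries and ran from -0.048 to 0.61. The difference in Card9 level between libraries labelled Card9-/- and WT ran from -0.67 to 0.0082, and that between Card9-/-5xFAD and 5xFAD from -0.91 to -0.32.

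A replicate block within each Card9 genotype rests on pairs taken from correlations in these same data, which the labels do not give. With it, the members called went from 0 to 2 in 5xFAD versus WT, 2 in Card9-/-5xFAD versus Card9-/- and 7 in the transgene average. All genes called were then 2322, 2966 and 6078, and other pathway genes called 19, 22 and 39. With 1 replicate block across all 4 genotypes, where the numbers do not pair libraries, 306 genes were called in 5xFAD versus WT, 340 in Card9-/-5xFAD versus Card9-/- and 1871 in the transgene average, and the members called in that average went from 0 to 1, Syk, with an adjusted p of 0.08745 in edgeR.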
